A study of Homo sapiens with 8 samples.

Results

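The major histocompatibility complex (MHC) on the short arm of human chromosome 6 is the most variable stretch of the human genome, and genome releases of the period carried extra assemblies of it, one for each of several sequenced haplotypes. The Affymetrix Human Transcriptome Array names probe sets for 7 of them, apd_hap1, cox_hap2, dbb_hap3, mann_hap4, mcf_hap5, qbl_hap6 and ssto_hap7. The rows described here were chosen by ID: an exon probe set whose ID begins PSR6_, or an exon-exon junction probe set whose ID begins JUC6_, followed by a haplotype name. Within a haplotype 1 of any rows with identical values in all 8 arrays was kept, so the measured values decided which rows counted as repeats. This left 31167 of 31545 listed rows, out of 913055 exon and junction rows of the table. The same values often stand in several haplotypes, and over all haplotypes the rows hold 7356 distinct sets of values, 4900 of exons and 2456 of junctions.

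The arrays compared A375, a human melanoma cell line, carrying a doxycycline-inducible lentiviral shRNA against PLK1 (A375 shPLK1) with the same line carrying a nonsense shRNA (A375 shNS), both collected after 48 h of doxycycline. PLK1 is a serine/threonine kinase that drives mitotic entry and spindle assembly. The methods describe shNS and shPLK1 lines as pools of cells selected with puromycin. They do not state this for the cells put on the arrays. The labels give 4 arrays of each line, named as biological replicates, while the methods and the design text speak of triplicates. All 8 arrays were used. Probe sets could not be paired with genes from the files used. The level of PLK1 and the melanocyte markers of the line were not checked on these arrays. The symbols that the authors deposited for transcript clusters were used here only for the MHC haplotypes.

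MHC genes fall into 3 classes by function. Class I genes encode the chains that present peptides from inside the cell to cytotoxic T cells, and nearly every nucleated cell expresses them. Class II genes encode paired alpha and beta chains (HLA-DR, HLA-DQ and HLA-DP) that present peptides to helper T cells. They are usually restricted to immune cells, although interferon-gamma induces them elsewhere and many melanomas express them without it. Class III genes encode complement components, cytokines and a variety of other proteins. Haplotypes differ most in the HLA-DR part of class II, where the number of HLA-DRB genes itself varies between people, and HLA-DRB3 and HLA-DRB4 each occur on only some haplotypes.

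Gene symbols for these haplotypes came only from the table of transcript clusters that the authors deposited, in which the heading 5d was taken as shPLK1 and NS as shNS. Of its 491 clusters, all listed at over 2-fold, 25 belong to the MHC haplotypes. The authors' average was lower in shPLK1 for 24 of the 25 and higher for 1. The directions over all 491 clusters were not counted, so these counts only describe the 25. Class II chains made up 23 of the 25. Of the 12 class II chain genes looked for, 7 had a haplotype cluster (HLA-DRA, HLA-DRB1, HLA-DRB3, HLA-DRB4, HLA-DRB6, HLA-DQA1 and HLA-DQB1). None of 4 class II loading genes, 9 class I genes, 5 class I processing genes or 17 class III genes had one. A gene missing from a table of changes over 2-fold is not thereby measured as unchanged.

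HLA-DRA, which encodes the nearly invariant alpha chain of HLA-DR, had a cluster in 6 haplotypes and none in apd_hap1. Its authors' averages on the log2 scale were 7.2 in shPLK1 and 9.89 in shNS for dbb_hap3, 6.98 and 9.65 for cox_hap2, and the same 7.1 and 9.78 for the other 4. HLA-DRB1, which encodes the main polymorphic beta chain, had 9 clusters over all 7 haplotypes. The averages of HLA-DRB1 ran from 5.12 to 6.61 in shPLK1 and from 6.59 to 9.24 in shNS, and the lines were furthest apart in dbb_hap3 (6.56 and 9.24) and nearest in cox_hap2 (5.15 and 6.59). HLA-DRB4, a further beta chain, held the clusters with the averages furthest apart, 5.3 and 8.65 in mann_hap4 and 5.49 and 8.59 in mcf_hap5, while its other cluster in mann_hap4 stood at 5.55 and 7.22. HLA-DRB3 stood at 5.94 and 7.98 (dbb_hap3) and at 6.0 and 8.0 (mann_hap4), and HLA-DRB6, a pseudogene, at 6.3 and 8.06 (cox_hap2). HLA-DQA1 was listed only for ssto_hap7, at 4.31 and 6.54, and HLA-DQB1 only for dbb_hap3, at 4.91 and 5.95. The 1 cluster with the higher average in shPLK1 was HCP5, a long noncoding RNA gene of the class I region, at 5.62 against 4.6 (mcf_hap5). These clusters are not independent of each other, since identical averages repeat between haplotypes.

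Class II promoters share a set of short elements, of which the Y box, an inverted CCAAT box bound by NF-Y, is the closest to the start. The RefSeq promoter table (GRCh38.p14) held 4 of the 8 genes named above, and the 150 bases before each annotated start are given because the averages of the class II chains were lower together and that of HCP5 was not. Capitals mark the first match to CTGATTGG on either strand or, where there was none, to its inner part ATTGG.
HLA-DRB1 (chr6:32589849-32589998, minus strand): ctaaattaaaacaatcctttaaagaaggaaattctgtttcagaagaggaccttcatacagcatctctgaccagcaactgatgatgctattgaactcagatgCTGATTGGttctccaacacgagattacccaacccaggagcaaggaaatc
HLA-DQB1 (chr6:32666658-32666807, minus strand): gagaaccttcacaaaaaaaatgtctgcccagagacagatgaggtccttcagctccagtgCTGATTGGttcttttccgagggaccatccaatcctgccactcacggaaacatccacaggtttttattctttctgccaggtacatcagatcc
HLA-DQA1 (chr6:32637256-32637405, plus strand): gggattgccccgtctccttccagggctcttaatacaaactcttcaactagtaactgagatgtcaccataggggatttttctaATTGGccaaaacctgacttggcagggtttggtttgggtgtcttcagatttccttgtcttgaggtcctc
HCP5 (chr6:31463030-31463179, plus strand): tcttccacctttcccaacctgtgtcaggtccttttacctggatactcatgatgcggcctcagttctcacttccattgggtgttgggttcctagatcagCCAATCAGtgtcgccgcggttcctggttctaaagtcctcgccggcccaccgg
CTGATTGG began 49 bases before the start in HLA-DRB1 and 91 bases before it in HLA-DQB1, and stood on the opposite strand from 52 bases before the start in HCP5. HLA-DQA1 held only ATTGG, from 68 bases before the start. In windows of the same length, 3.12% of all 35116 promoters in the table held CTGATTGG on either strand and 23.5% held ATTGG, which every CTGATTGG contains. CTGATTGG stood before HCP5, with a higher average, and before HLA-DRB1 and HLA-DQB1, with lower ones. Whether these letters bear on the averages was not tested.

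At the level of single probe sets, limma was fitted to all 913055 exon and junction rows, and a row was called at a Benjamini-Hochberg adjusted p under 0.05. Of the 7356 distinct haplotype rows, 210 (2.85%) were lower in shPLK1 and 8 (0.109%) were higher. Over all exon and junction rows of the table, 1.62% were lower and 1.44% higher. Among exon rows 152 of 4900 were lower (3.1%, against 1.7% of all exon rows), and among junction rows 58 of 2456 (2.36%, against 1.48% of all junction rows). That the haplotype rows held many decreases was known when they were picked out, so these counts describe them and carry no test of the group. The values of the 4 shPLK1 arrays lay under all 4 shNS values in 393 of the 7356 rows (5.34%, against 4.91% of all rows), a share close to the background, and in each of the 210 lower rows. Of those 210, 173 were lower by over 2-fold, 100 by over 4-fold and 45 by over 8-fold. The shares of all exon and junction rows at these folds were not taken, so these counts only describe the 210. In bulk RNA a lower level in every cell and a loss of signal from a part of the cells cannot be told apart.

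The rows were split by whether their values also stand outside the haplotypes. Of the distinct rows, 4967 repeat the values of a row with a chromosome 6 ID and 2389 repeat no row outside the haplotypes. Among rows with no such repeat 136 of 2389 were lower (5.69%), and among rows with one 74 of 4967 (1.49%). Over all 46973 rows with a chromosome 6 ID, 1.6% were lower. Rows were also split by how many haplotypes hold them. Of rows in 1 haplotype alone 68 of 1368 were lower (4.97%), of rows in 2 haplotypes 47 of 707 (6.65%), and of rows in 5 only 9 of 1419 (0.634%). In rows held by all 7 the share was 43 of 833 (5.16%), and 42 of those 43 repeat a chromosome 6 row. The share was thus high at both ends, in rows of 1 or 2 haplotypes and in rows held by all 7.

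**Figure D1:**
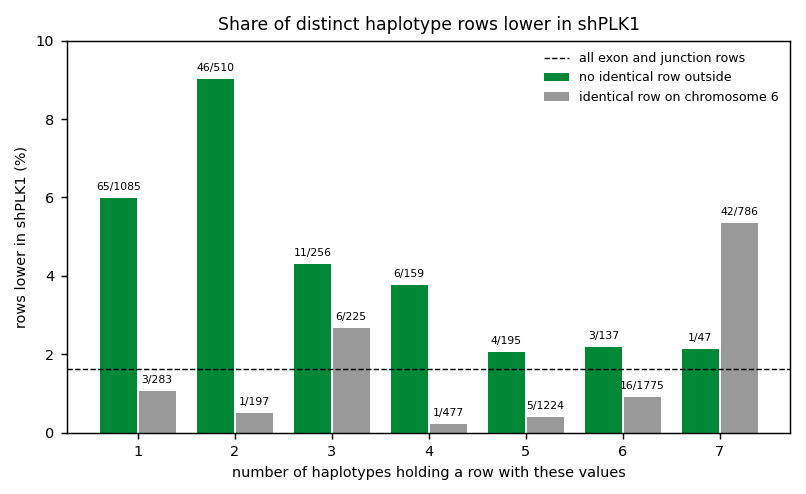
Share of distinct haplotype rows lower in shPLK1 (y axis, percent) by the number of haplotypes that hold the same values (x axis), for rows with no identical row outside (green) and with an identical chromosome 6 row (grey). Labels give lower rows over all rows, and the dashed line marks 1.62%, the share over all exon and junction rows. The tallest green bar, for 2 haplotypes, is 9.02% (46 of 510 rows), and the tallest grey bar, for 7 haplotypes, is 5.34% (42 of 786).

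Counted within each haplotype, between 67 and 113 rows were lower. The counts were 67 of 2233 in apd_hap1, 108 of 5377 in cox_hap2, 104 of 4956 in dbb_hap3, 109 of 4044 in mann_hap4, 95 of 4897 in mcf_hap5, 105 of 5140 in qbl_hap6 and 113 of 4520 in ssto_hap7. As shares these were 1.94% in mcf_hap5 to 3% in apd_hap1, each above the 1.62% of the whole table. The haplotypes share most of their rows, so these shares are not independent and the differences between haplotypes were not tested. Some combinations of haplotypes stood out in number. Rows held by mann_hap4, mcf_hap5 and ssto_hap7 and by no other were lower in 7 of 16, those of dbb_hap3 and mann_hap4 alone in 15 of 49, and those of cox_hap2 and qbl_hap6 alone in 19 of 78. Rows held by every haplotype except apd_hap1 were lower in 12 of 1224.

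Along the ID number the decreases were gathered in a few places. The order of the numbers is that of the array's design, and the files do not say whether it follows genome position or strand. When the exon rows of each haplotype were cut into 20 runs of equal size, 12 to 15 runs per haplotype held no lower row. The 4 fullest runs of each haplotype held 93.5% of the lower exon rows. For junction rows the 4 fullest runs held 87.0%. With 10 runs per haplotype, the same portion of runs held 76.2% of the lower exon rows. These runs were picked by their own counts, and a row was counted in each haplotype that holds it. Such shares were not taken for other rows of the array. The first 6 runs of exon rows held 1 lower row over all 7 haplotypes together. Joining lower rows that had at most 50 distinct rows between them, and keeping groups of at least 5, gave 3 stretches of exon rows in each of 6 haplotypes and 2 in apd_hap1. These 20 exon stretches held 141 of the 152 distinct lower exon rows, and with the junction stretches 194 of all 210. No row inside the exon stretches was higher.

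**Figure D2:**
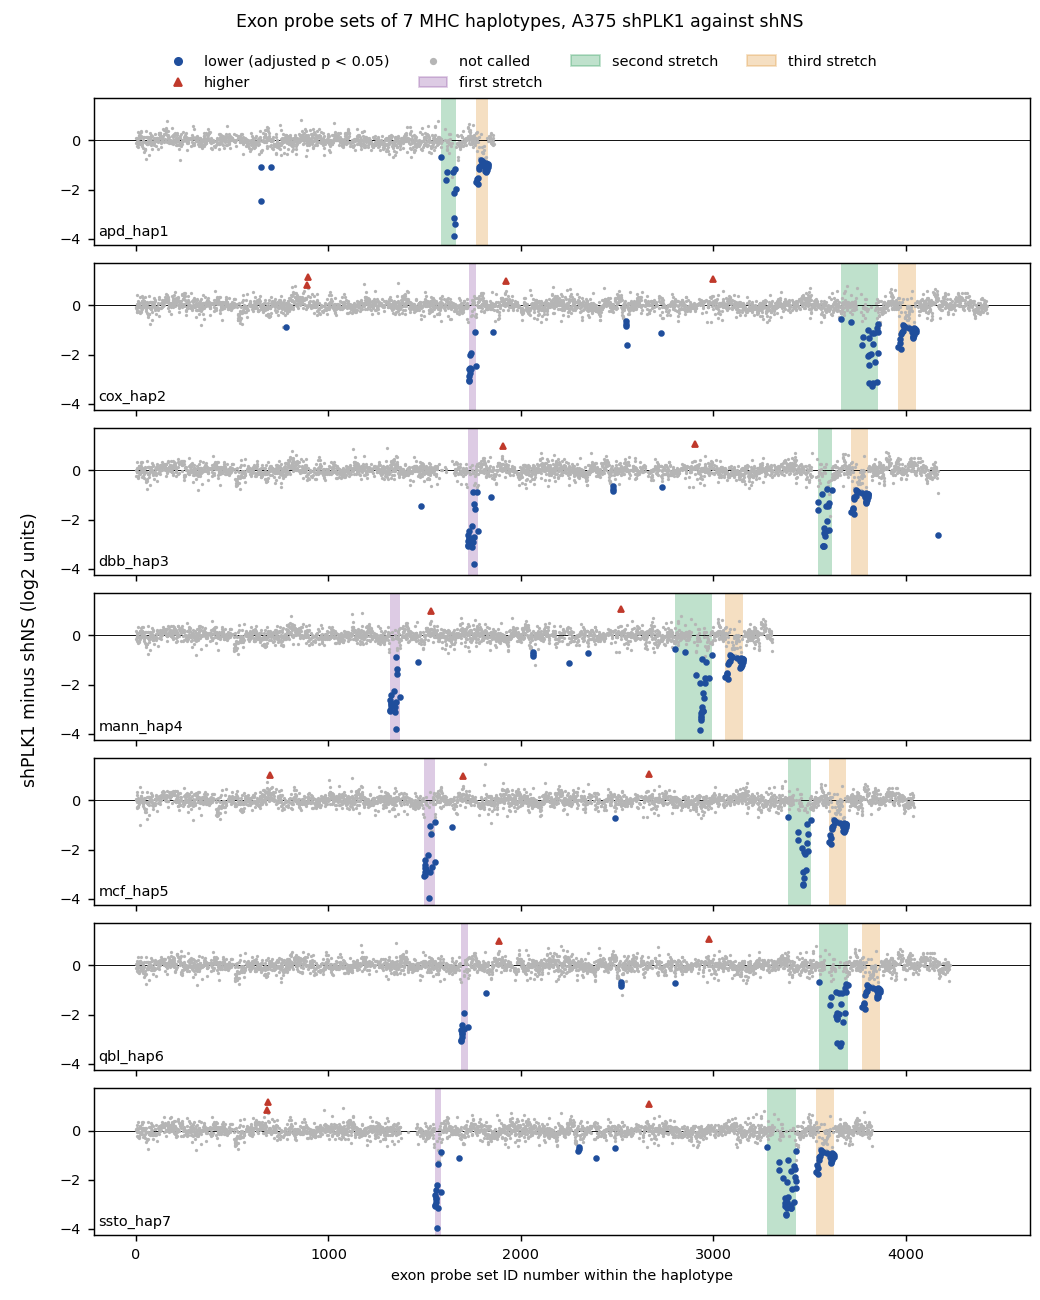
Difference of shPLK1 from shNS (y axis, log2 units) against the ID number of each exon probe set (x axis), with 1 panel per haplotype. Blue points are lower and red triangles higher at an adjusted p under 0.05, grey points were not called, and shading marks the first (purple), the second (green) and the third (orange) stretch of lower rows. In apd_hap1, whose highest exon number is 1860, the purple stretch is missing.

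The first exon stretch began at 36.6% to 40.1% of the way through the rows of its haplotype. In mann_hap4 it ran from number 1320 to 1373, where 16 of 36 rows were lower. In qbl_hap6 10 of 26 were lower and in dbb_hap3 17 of 36. Decreases there were large, with a median between -2.59 and -2.74 on the log2 scale in the 6 haplotypes, and the 28 distinct rows involved had a median level of 7.53 in shNS and 5.56 in shPLK1. apd_hap1 had only 3 lower exon rows before its second stretch, too few for a stretch, and the same haplotype had no HLA-DRA cluster in the authors' table. Whether these rows belong to that gene was not tested. Of the 28 rows, 17 occur in only 1 or 2 haplotypes and 1 is held by all 7. A row has the same call in every haplotype that holds it. A haplotype thus lacks one of these lower rows only where it does not hold those values. Of the 28 rows, 7 repeat a chromosome 6 row, with numbers 4625 to 4679 there.

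PSR6_mcf_hap5001523 had the largest decrease of any exon row, in the first stretch of mcf_hap5 and ssto_hap7, the only haplotypes that hold it. Its log2 signal was 4.75, 4.51, 4.41 and 4.78 in the 4 shPLK1 arrays and 8.46, 8.62, 8.74 and 8.54 in the 4 shNS arrays. The groups were far apart, and the arrays within a group differed by less than 0.4. The difference was -3.98 ± 0.13 (SE), 15.8-fold lower (limma adjusted p = 2.4e-06). The exact permutation test of this single row gave p = 0.029 (two-sided), the smallest that 4 arrays against 4 allow. Any row whose groups lie fully apart has this p, as does every called row named here. It therefore adds no support to those calls.

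PSR6_dbb_hap3001755, held by dbb_hap3 and mann_hap4 and with no repeat on chromosome 6, was one of the dimmest of the strongly lowered rows. It measured 3.04, 2.96, 2.96 and 2.47 in shPLK1 and 6.9, 6.7, 6.82 and 6.24 in shNS. The difference was -3.81 ± 0.19 (SE, limma adjusted p = 1.1e-05). Its shPLK1 values lay near the level of the array's background controls, whose 23 means had a median of 2.98, and the part of the background in the size of the difference was not tested. Over all 210 lower rows, 8 had a shPLK1 mean under that median and none had a shNS mean under it. The 23 control means ran from 1.36 to 10.78, so this median does not mark the background of every row. A shPLK1 mean under 7 was found in 158 of the 210.

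The junction row with the largest decrease of all haplotype rows, JUC6_cox_hap2000643, lay in the first junction stretch and is held by every haplotype except apd_hap1. Its values were 5.7, 5.06, 5.08 and 4.97 in shPLK1 and 9.27, 9.62, 9.31 and 9.38 in shNS. The shNS arrays lay close together and far above every shPLK1 array. The difference was -4.19 ± 0.18 (SE), or 18.3-fold lower (limma adjusted p = 5.7e-06). It repeats a chromosome 6 junction row, so this decrease is not particular to the haplotype sequences.

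The second exon stretch, which began at 82.6% to 86.6% of the way through the rows, differed most between haplotypes. It held 10 lower rows in apd_hap1, 16 in mcf_hap5, 17 in dbb_hap3, 21 in mann_hap4 and in qbl_hap6, 22 in cox_hap2 and 26 in ssto_hap7. Together these were 82 distinct rows, of which 51 occur in a single haplotype, 3 repeat a chromosome 6 row and 1 is held by all 7. Over the 21 pairs of haplotypes the number of shared lower rows had a median of 3. The pair that shared most was cox_hap2 and qbl_hap6, with 16 rows in common (72.7% of the rows of cox_hap2 and 76.2% of those of qbl_hap6). ssto_hap7 had 17 of its 26 lower rows to itself. The decreases had a median of -2.06 and reached -3.90, from a median level of 7.61 in shNS.

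The longest unbroken run of lower exon rows stood in this stretch, 13 neighbouring distinct rows of mann_hap4 from number 2931 to 2949. None of the 13 repeats a chromosome 6 row. Of them 6 are also held by dbb_hap3, 3 by mcf_hap5 and ssto_hap7, and 4 by mann_hap4 alone. The median signal over the 13 rows was 6.11, 5.95, 5.64 and 5.34 in the shPLK1 arrays and 8.91, 8.67, 8.70 and 8.65 in the shNS arrays. Differences within the run ranged from -0.94 to -3.83 log2 units, so neighbouring rows did not fall by a common amount. In the other haplotypes the longest such run of exon rows was 7 or 8.

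PSR6_mann_hap4002932, from that run and found in no other haplotype, gave 4.16, 4.47, 4.84 and 4.66 in shPLK1 and 8.33, 8.87, 8.41 and 7.82 in shNS. The difference of -3.83 ± 0.23 (SE) corresponds to 14.2-fold (limma adjusted p = 3.4e-05). PSR6_mann_hap4002935, shared with mcf_hap5 and ssto_hap7, was brighter, at 5.73 ± 0.39 in shPLK1 and 9.19 ± 0.15 in shNS (SD, n = 4 each), a difference of -3.46 (limma adjusted p = 2.3e-05). Its neighbour PSR6_mann_hap4002936, again only in mann_hap4, fell 10.2-fold, from 7.9 ± 0.16 to 4.55 ± 0.42, and PSR6_mcf_hap5003467, held by mcf_hap5 and ssto_hap7, fell 10.5-fold, from 7.95 ± 0.21 to 4.56 ± 0.46.

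In apd_hap1, the haplotype with the fewest rows, a pair of rows held by no other haplotype was among the 8 largest exon decreases. PSR6_apd_hap1001651 measured 5.09, 3.13, 3.33 and 4.01 in shPLK1 against 7.94, 7.57, 8.02 and 7.65 in shNS. Its shPLK1 arrays spread over nearly 2 log2 units while the shNS arrays stayed within 0.5, and the SE of the difference of -3.90 was the largest among the exon rows named (0.38, limma adjusted p = 0.00052). PSR6_apd_hap1001655 was far brighter, with 7.02, 6.72, 7.27 and 6.7 in shPLK1 and 10.3, 10.22, 10.51 and 10.22 in shNS, and was 10.5-fold lower with an SE of 0.16.

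**Figure D3:**
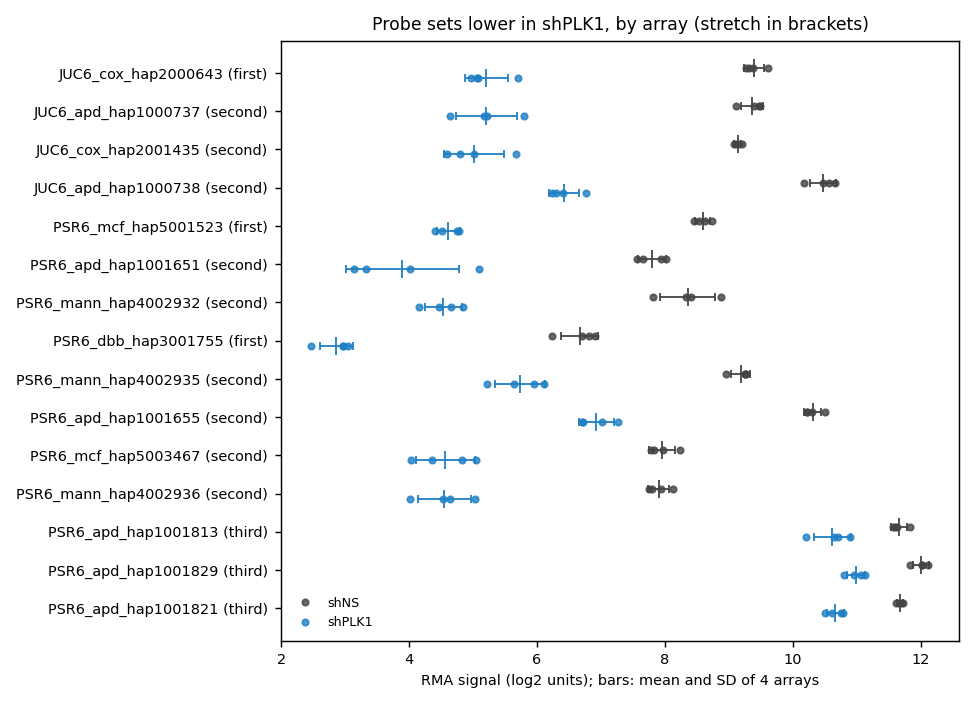
RMA signal (x axis, log2 units) of 15 lower probe sets in each shPLK1 (blue) and shNS (grey) array, with the mean and SD of 4 arrays as bars and the stretch of each row in brackets. JUC6_apd_hap1000738, marked second, lies in the stretch of apd_hap1 that joins the second and the third. The groups are apart in every row, by about 4 log2 units at the top and about 1 in the bottom 3 rows, which belong to the third stretch.

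The third exon stretch began at 88.1% to 94.9% of the way through the rows, and it was nearly the same in every haplotype. It held 25 lower rows in apd_hap1 and 26 in each of the other 6, from 31 distinct rows in all, and 20 rows were common to all 7 haplotypes. Any pair of haplotypes shared 22 to 26 of them, and mann_hap4 and qbl_hap6 had the same 26. Of the 31 rows 25 repeat a chromosome 6 row, with numbers 18817 to 18924 there. Decreases were smaller and more even than in the other stretches, from -0.81 to -1.76 with a median of -1.07, about 2-fold. The rows were also brighter. Over the 31 rows, the median signal was 8.24, 8.42, 8.29 and 8.05 in the shPLK1 arrays and 9.58, 9.40, 9.53 and 9.21 in the shNS arrays.

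The brightest of the rows common to all 7 haplotypes, named after their values had been seen, show this pattern. PSR6_apd_hap1001829 measured 11.13, 11.07, 10.96 and 10.81 in shPLK1 and 12.12, 12.03, 12.03 and 11.83 in shNS, 2.01-fold lower (limma adjusted p = 0.002). PSR6_apd_hap1001821 was 2.02-fold lower (limma adjusted p = 0.0012) and PSR6_apd_hap1001813 2.07-fold lower (limma adjusted p = 0.0071). All 3 kept signals above 10 in every shPLK1 array. Levels between probe sets depend on the probes as well as the RNA, so the brightness of a stretch is a description only.

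**Figure D4:**
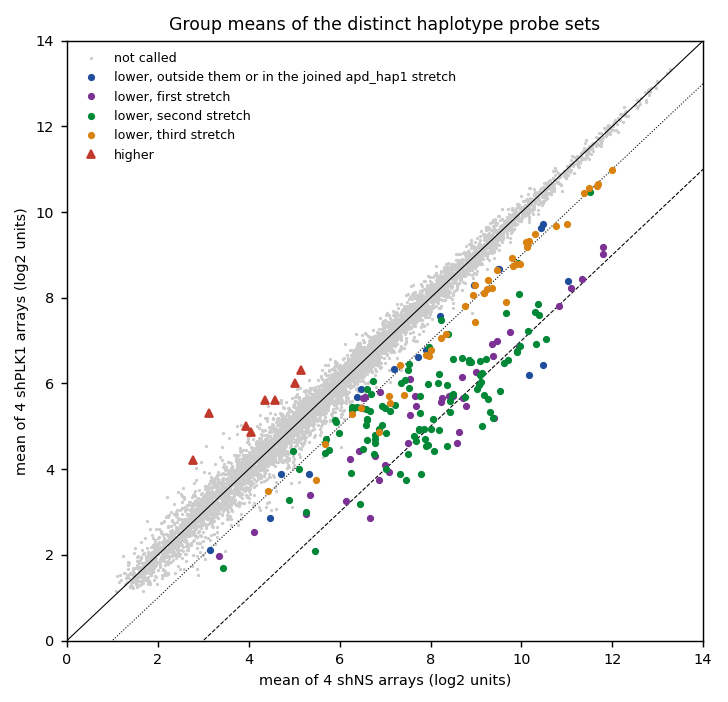
Mean of 4 shPLK1 arrays (y axis) against mean of 4 shNS arrays (x axis), both in log2 units, for the 7356 distinct haplotype rows. The solid, dotted and dashed lines mark equal signal, a 2-fold and an 8-fold decrease. Rows of the third stretches (orange) lie near the 2-fold line up to the brightest lower rows, with decreases as large as -1.99. Rows of the first (purple) and second (green) stretches lie further down in the median. Their smallest exon decreases were -0.87 and -0.56, less than 2-fold. The 8 higher rows (red) all lie below a level of 7.

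Junction rows repeated the pattern. They formed 3 stretches in 6 haplotypes, and in apd_hap1 a single one of 23 lower rows, from number 698 to 851, which joined rows of the second and the third. The third junction stretch held the same 10 rows in all 7 haplotypes, with a median decrease of -1.02 to -1.03 in the 6 that had it apart. The first junction stretch held 10 or 11 lower rows, 7 to 10 of them shared by any pair of haplotypes, and the second 11 to 18. Place along the numbering was less regular than for exons. The third junction stretch began at 77.9% of the rows in dbb_hap3, 80.7% in cox_hap2 and 96.1% to 98.8% in mann_hap4, mcf_hap5, qbl_hap6 and ssto_hap7. The longest run of neighbouring lower junction rows was 10, in ssto_hap7 from number 1363 to 1386, and 5 or 6 elsewhere.

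**Figure D5:**
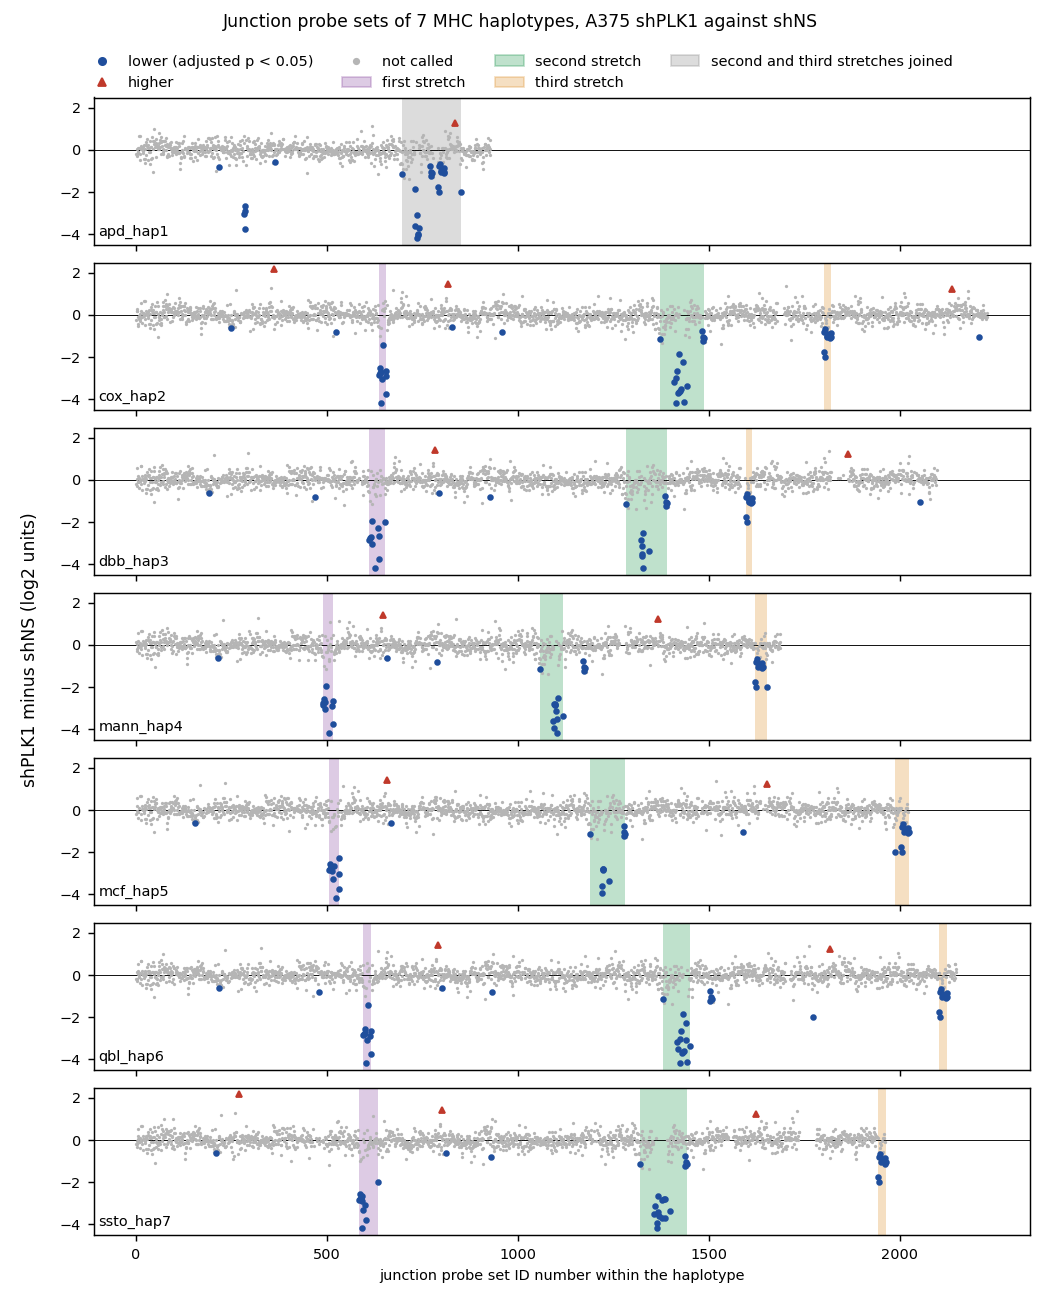
Difference of shPLK1 from shNS (y axis, log2 units) against the ID number of each junction probe set (x axis), with 1 panel per haplotype and the marks of the exon plot. Grey shading in apd_hap1 marks the stretch that joins the second and the third. The deepest points reach about -4.2 in the first and second stretches, and the orange stretch sits at a different place in cox_hap2 and dbb_hap3 than in the panels of the other 4 haplotypes.

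The other 3 of the 4 largest junction decreases came from the second stretch or, in apd_hap1, from the joined one. JUC6_apd_hap1000737, held by all haplotypes but mcf_hap5, measured 5.8, 4.64, 5.17 and 5.21 in shPLK1 and 9.39, 9.49, 9.47 and 9.12 in shNS and was 17.9-fold lower (limma adjusted p = 1.8e-05). JUC6_cox_hap2001435, held only by cox_hap2 and qbl_hap6 and with no repeat on chromosome 6, was 17.5-fold lower, with shNS arrays that agreed within 0.12 log2 units (9.08, 9.12, 9.2 and 9.16) and shPLK1 arrays at 5.67, 4.79, 5.01 and 4.59. JUC6_apd_hap1000738 was the brightest, at 6.42 ± 0.23 in shPLK1 and 10.47 ± 0.21 in shNS (SD, n = 4 each), and 16.6-fold lower. The largest decrease of each haplotype was JUC6_cox_hap2000643 in 6 haplotypes and JUC6_apd_hap1000737 in apd_hap1.

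Many bright rows had a difference close to 0. Of the distinct rows, 2339 had a mean of at least 7, a level used here to mark bright rows, and 1416 of these (60.5%) had a 95% interval of the difference within 0.5 log2 units of 0. Another 102 of the 2339 were lower, against 6299 of 266601 lower among all bright exon and junction rows. None of the 2339 was higher. The share of higher rows among all bright rows was not taken, so this only describes the haplotype rows. The remaining 821 were not called and had intervals that reached beyond 0.5 log2 units from 0. PSR6_cox_hap2000531 was among them, with an interval from -0.93 to -0.3 that left out 0. Of all bright exon and junction rows 56.8% had an interval within 0.5 log2 units of 0, and of all bright exon rows 62.5%. Before the first exon stretch, 70.4% to 72.0% of the bright exon rows were close to 0 in the 6 haplotypes that have it, with 0 or 1 lower row among 952 to 1256 rows. Between the second and the third stretches apd_hap1 has 81 rows and the others 60 to 82. No lower row could stand there, since the joining rule would have placed it in a stretch. No row there was higher. Of the bright rows 78.3% to 84.6% were close to 0, a share taken after that rule had removed any lower rows. Inside the first stretches the rows that were not called had median levels of 3.06 to 3.75, and 0 or 1 of them per haplotype was bright, so little can be read there about a lack of change. Inside the third stretches the rows that were not called leaned lower, with median differences of -0.18 to -0.28.

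The 4 brightest rows with an interval within 0.5 of 0 had means above 13. JUC6_cox_hap2002110 measured 13.31, 13.29, 13.39 and 13.33 in shPLK1 and 13.25, 13.29, 13.22 and 13.3 in shNS. The difference was 0.07, with a 95% interval from -0.16 to 0.29. For its neighbour JUC6_cox_hap2002109 the difference was 0.05 (-0.19 to 0.29), for JUC6_apd_hap1000132 0.03 (-0.22 to 0.29), and for PSR6_apd_hap1000317 0.03 (-0.22 to 0.28). The first pair is held by every haplotype except apd_hap1 and the other rows by all 7.

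Only 16 lower rows stood outside the stretches. The largest decrease among them was that of PSR6_dbb_hap3004165, found in dbb_hap3 alone, from 11.02 to 8.38 (limma adjusted p = 8.4e-06). The exon rows with numbers 2545, 2546 and 2547 in cox_hap2 formed a small group that 4 or 5 haplotypes hold, with differences of -0.82, -0.65 and -0.76. At the limit of the call, PSR6_dbb_hap3001752 was just inside (-0.88, limma adjusted p = 0.0499) and PSR6_cox_hap2000531 just outside (-0.61, limma adjusted p = 0.0502). The first lost its call when any array but shPLK1 replicate 2 was left out (adjusted p of 0.094 to 0.14), and the other gained one without shPLK1 replicate 3 (adjusted p = 0.045).

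The 8 higher rows formed no stretch, although PSR6_cox_hap2000891 and PSR6_cox_hap2000896, both held by cox_hap2 and ssto_hap7, have nearby numbers. They had shNS means of 2.76 to 5.15, all in the dim part of the scale. JUC6_cox_hap2000362, held by cox_hap2 and ssto_hap7, rose the most, with 4.96, 5.66, 5.65 and 4.95 in shPLK1 and 2.41, 2.5, 3.92 and 3.71 in shNS. The shNS arrays fell into pairs more than 1 log2 unit apart, and the difference of 2.17 had an SE of 0.37 (limma adjusted p = 0.012). JUC6_cox_hap2000818 was called higher (limma adjusted p = 0.0064), but its shNS mean of 2.76 lay under the background controls' median of 2.98, as did 2 of the shNS arrays of JUC6_cox_hap2000362 (2.41 and 2.5), so the size of neither difference is firm. PSR6_cox_hap2000896 rose by 1.16 (limma adjusted p = 0.0011). JUC6_apd_hap1000836 was higher by 1.25 (limma adjusted p = 0.024), a call lost when any of the arrays shPLK1 replicate 2, 3 or 4 or shNS replicate 1 was left out (adjusted p of 0.061 to 0.075). The count of higher rows was 32 instead of 8 when limma's prior variance followed the level of the row, and 31 without the rows under the median level, while the lower count moved only to 227 and 213. Without shNS replicate 4, 15 rows were higher.

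Signal level differed little between the haplotypes, with apd_hap1 lowest. The median over the rows of a haplotype was between 5.77 in apd_hap1 and 6.07 in mcf_hap5, against 5.45 over all exon and junction rows and 4.86 over the chromosome 6 rows. Between 31.0% (apd_hap1) and 34.0% (mcf_hap5) of the rows were bright, against 29.2% of all rows and 22.6% of the chromosome 6 rows. The medians of apd_hap1 in the 8 arrays, from 5.71 to 5.84, lay under those of every other haplotype, which ran from 5.88 in mann_hap4 to 6.12 in mcf_hap5. No test was made of this, since the haplotypes hold different rows and the same arrays. Rows of 1 haplotype alone had medians from 5.24 in cox_hap2 to 6.09 in ssto_hap7. Across the 7356 distinct rows, which are not independent replicates, 2 shPLK1 arrays correlated with r = 0.977 to 0.985 and 2 shNS arrays with r = 0.978 to 0.984, against 0.962 to 0.970 for an array of each line.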

How the data were processed

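RNA of 4 A375 shPLK1 and 4 A375 shNS samples was hybridized to Human Transcriptome Arrays. The authors processed the scans in the Transcriptome Analysis Console by RMA (background correction, quantile normalization and probe summary), and deposited log2 signals per exon and junction probe set. The genome build is not given in the sources used here. The authors' deposited table holds bi-weight log2 averages of the groups, whose fold and p-value columns were not used. Groups and replicate numbers came from the labels.

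limma 3.58.1 (R 4.3.3) compared the 2 groups with no other covariate, by default eBayes and without a filter, and checked on simulated data. Tables were made in Python 3.11.15 with pandas 2.3.3. Depth has no counterpart on arrays, and the number of arrays limits the precision. The members, the gene lists and the rules for named rows were chosen with earlier results of these data known. Among rows with groups apart, the 8 exon and 4 junction rows with the largest decrease and the 4 largest increases were named. Also named were the largest decrease of each haplotype, the 4 brightest rows close to 0, the ends of the longest runs and the rows at the limit. The alternatives were exon rows alone, 1 of identical rows, a filter at the median level, trended or robust eBayes, centred or requantiled arrays, a replicate block, each array left out, and the study's thresholds.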

Additional observations from a re-analysis of the deposited data

Results flagged for a closer look

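In 3 of the 50 groups of 4 arrays behind the named rows, 1 array stood far from the other 3 by Dixon's test, and chance alone flags about 1 in 20. JUC6_cox_hap2000643 read 5.7 in shPLK1 replicate 1, 0.62 log2 units above the next array. PSR6_dbb_hap3001755 read 2.47 in shPLK1 replicate 4, 0.49 below the next. PSR6_mann_hap4002935 read 8.96 in shNS replicate 4, 0.30 below the next. All 3 rows stayed lower in shPLK1 with each array left out in turn.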

How the results depend on the processing

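The count of lower rows was 173 to 227 under every alternative fit (210 as reported) and 183 to 199 with 1 array left out. Where exon rows alone were fitted 176 exon rows were lower, against 152 exon rows in the main fit. The count of all lower rows was 304 at an unadjusted p under 0.01 and 136 without the rows that repeat a row outside the haplotypes. The count of higher rows (8 as reported) depended on the setting. With exon rows alone in the fit 20 exon rows were higher, against 5 exon rows in the main fit. The count of all higher rows was 31 without rows under the median level and 32 with a trended prior. It was 20 at an unadjusted p under 0.05 with a fold above 2, and 77 at an unadjusted p under 0.01. The shares of all exon and junction rows at the unadjusted limits were not taken. With 1 array left out it ran from 6 to 15, the highest without shNS replicate 4. An unadjusted p under 0.01 gave 163 lower rows in cox_hap2, 160 in dbb_hap3, 167 in mann_hap4, 150 in mcf_hap5 and 163 in qbl_hap6. Counted apart, exon and junction rows that were lower numbered 38 and 29 in apd_hap1 (44 exon rows with exon rows alone in the fit), 66 and 42 in cox_hap2, 67 and 37 in dbb_hap3, 69 and 40 in mann_hap4, 59 and 36 in mcf_hap5, 62 and 43 in qbl_hap6 and 71 and 42 in ssto_hap7. The share of bright rows (31.8% of distinct rows) was 48.6% at a limit of 6 and 19.4% at a limit of 8. The interval of the difference lay within 0.25 log2 units of 0 in 12 bright rows, instead of 1416 at the limit of 0.5. This limit was set on the whole interval, so a row with a difference nearer to 0 than 0.25 could still fail it.

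The 20 exon stretches kept their number under all alternative fits but 1 (22 without shPLK1 replicate 4), and were 17 with gaps of up to 80 rows, a choice made after seeing the data. Of the 25 named rows none changed direction among the called ones. In 386 refitted values 15 lost the call and 6 gained it. PSR6_dbb_hap3001752, at the limit, lost it in 9 of 16 fits, with an adjusted p of 0.015 to 0.14 over all of them. The replicate numbers gave no sign of pairing. Arrays with the same number did not deviate together (r = -0.105 to 0.032) and none correlated best with its own number. The labels do not say whether samples were prepared in pairs, and these correlations cannot show that they were not. With a replicate block 173 rows were lower and 6 higher, and PSR6_apd_hap1001813 (adjusted p = 0.056) and JUC6_apd_hap1000836 (adjusted p = 0.061) lost their calls. The causes of these shifts were not tested.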
